A study of Oryctolagus cuniculus with 24 samples.

Results

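The comparison described here is that of rabbit peripheral blood mononuclear cells (PBMCs) after 4 hours (T4) with phorbol myristate acetate (PMA) and ionomycin against mock-stimulated PBMCs of the same time. It rests on 8 arrays of the 24 in the series, 4 of each group, chosen by the stimulation and time in the sample labels. PBMCs, the lymphocytes and monocytes of the blood, came from 4 animals, adult New Zealand White does that the labels number 1, 2, 4 and 5, and each rabbit gave cells to all 6 groups (mock, LPS and PMA-Ionomycin, at T4 and T24). PMA was used at 10 ng/mL together with ionomycin at 1 µg/mL, LPS at 1 µg/mL, and mock-stimulated cells received buffer without these agents. RNA was taken from whole cultures, so that fewer cells of a type and less RNA per cell cannot be told apart in any value below. Levels are log2 median spot signals minus the median of their array, a log2 FC is the PMA-Ionomycin mean minus the mock mean on that scale, and a gene was called when its limma adjusted p was under 0.05 among all genes. Values of single arrays are given in the order rabbit 1, 2, 4 and 5, with mock before PMA-Ionomycin.

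PMA stands in for diacylglycerol and activates protein kinase C and, through RasGRP proteins, the ERK pathway. Ionomycin carries calcium into the cell, which activates calcineurin and lets NFAT enter the nucleus. In T cells these signals join with NF-kappaB and AP-1 at cytokine genes, so that the mixture bypasses the antigen receptor. It acts on monocytes, B cells, NK cells and platelets too.

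Signals of dim genes are compressed, because the median signal contains the local background. Of the spots of an array, 52.6 to 60.0% were well above background after PMA-Ionomycin and 55.2 to 60.8% after mock-stimulation, and no spot of these 8 arrays was saturated. The lowest share, 52.6%, was that of the PMA-Ionomycin array of rabbit 2, and the comparison was repeated without it. The arrays lie on 3 slides, each of which holds both groups. Of the marker lists, T cell markers had a mean level of 0.53 to 1.04 on mock arrays and 0.51 to 0.95 after PMA-Ionomycin, and 8 of them were found. CD4 was not well above background on any of the 8 arrays, whereas CD8A was on all of them.

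The array probes are 60 bases long, and those of the cytokines with the largest rises are shown because they bear on how many independent readings stand behind each value. CSF2, which encodes the growth factor GM-CSF, was read by 5 probes that lie within 66 bases of chromosome 3 (build oryCun2, plus strand). They share 54 bases, in capitals in the outermost pair, at chr3:15145955-15146014 and chr3:15145961-15146020.
CSF2 probe 1: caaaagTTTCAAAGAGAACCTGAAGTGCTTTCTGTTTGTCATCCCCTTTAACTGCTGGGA
CSF2 probe 5: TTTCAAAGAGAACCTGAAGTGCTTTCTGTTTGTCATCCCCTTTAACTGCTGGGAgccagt
The 5 log2 FC of CSF2 probes ran from 7.82 to 7.99, and since the probes share nearly all their bases they amount to repeated readings of the same stretch.

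IL4 was read in the same way, by 5 probes within 68 bases of chromosome 3, of which the outermost lie at chr3:15711364-15711423 and chr3:15711372-15711431 on the plus strand. Capitals mark the 52 bases common to all 5.
IL4 probe 1: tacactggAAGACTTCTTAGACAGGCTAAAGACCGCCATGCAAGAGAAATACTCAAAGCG
IL4 probe 5: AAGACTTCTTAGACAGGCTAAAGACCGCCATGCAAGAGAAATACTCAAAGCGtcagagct
Their log2 FC lay between 6.75 and 6.84.

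The 4 probes of IL2 are more spread out, over 2156 bases of chromosome 15 on the minus strand, and overlap only in pairs. Capitals mark the 20 bases that neighbouring probes share. Probe 1 lies at chr15:98312704-98312763, probe 2 at chr15:98312744-98312803 and probe 4 at chr15:98314800-98314859, while the coordinates given for probe 3, chr15:98312804-98314819, span 2016 bases for its 60.
IL2 probe 1: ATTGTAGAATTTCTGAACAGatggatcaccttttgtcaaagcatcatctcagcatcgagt
IL2 probe 2: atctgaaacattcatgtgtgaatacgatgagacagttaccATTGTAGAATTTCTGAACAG
IL2 probe 3: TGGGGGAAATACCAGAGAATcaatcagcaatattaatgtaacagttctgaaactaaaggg
IL2 probe 4: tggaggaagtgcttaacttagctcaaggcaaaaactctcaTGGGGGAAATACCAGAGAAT
Probes 1, 2 and 4 were well above background on no mock array and were at least 53.3-fold, 50.9-fold and 34.5-fold higher after PMA-Ionomycin. Probe 3 was well above background on 1 mock array and had a log2 FC of 4.82.

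IL13, IL10 and IL17A were each read by a single probe, IL13 at chr3:15691744-15692067 (324 bases for 60), IL10 at chr16:65583372-65584326 (955 bases for 60) and IL17A at chr12:41696043-41696102, with no strand given.
IL13 probe: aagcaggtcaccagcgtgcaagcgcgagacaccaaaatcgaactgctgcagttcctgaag
IL10 probe: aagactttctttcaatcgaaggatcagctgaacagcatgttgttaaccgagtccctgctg
IL17A probe: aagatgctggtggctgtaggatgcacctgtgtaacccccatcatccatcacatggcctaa
No second probe checks these genes.

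Of 28906 genes tested at T4, 6579 (22.8%) were called, 3879 (13.4%) higher and 2700 (9.34%) lower after PMA-Ionomycin. The counts of each gene list below stand beside these shares. A gene symbol was known for 9571 genes, of which 2497 (26.1%) were called, 1419 (14.8%) were higher and 1078 (11.3%) lower. The rises were the larger ones: 348 called genes rose and 185 fell by at least 4-fold, and 41 rose and 8 fell by at least 16-fold. In 6269 of the called genes all 4 rabbits moved the same way, and in 6413 the difference had the same sign within each of the 3 slides. Both counts are among genes called from the same arrays, and the call favours such agreement. The groups did not overlap for 5351 of the called genes, and for 21.4% of all genes tested. The share of calls that were higher depended on the scaling, with 59% under median centring and 47 to 50.6% when the arrays were scaled by quantiles, by the 75th percentile of the processed signal or as in the deposited table. The median log2 FC of all genes moved from 0.05 to -0.16 under the 75th percentile, so that log2 FC of that size have no settled direction. The plot of all genes shows the called genes at every level above the dimmest.

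**Figure D1:**
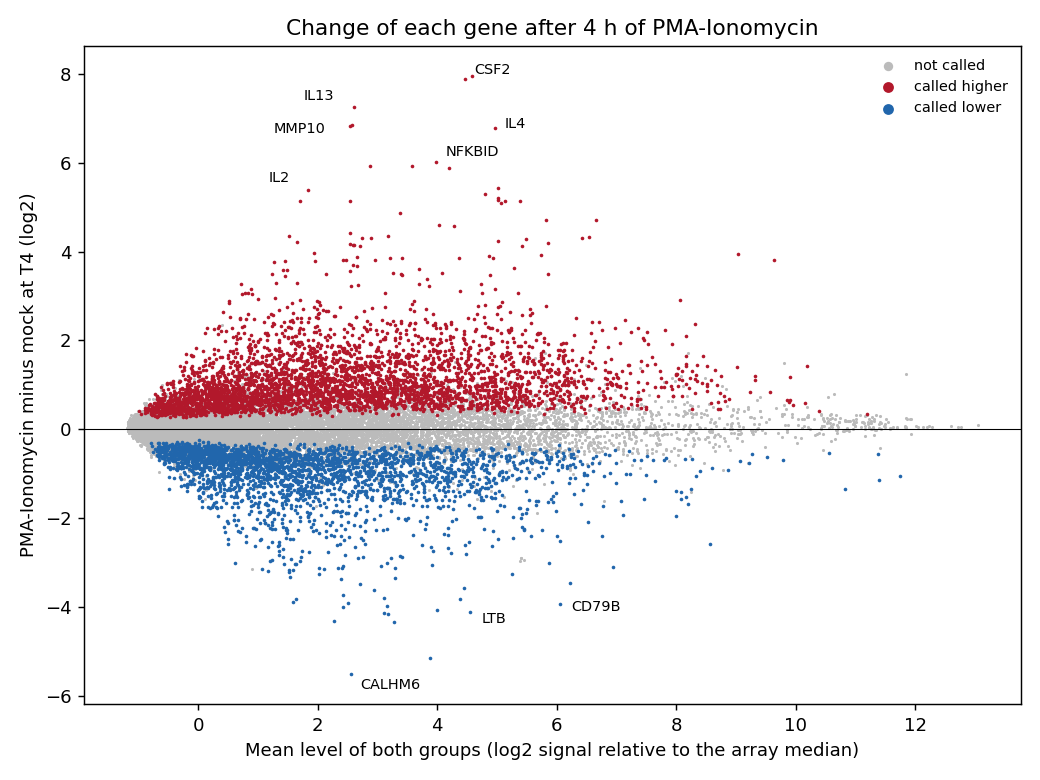
Each point is a gene. The x axis is its mean level over mock and PMA-Ionomycin arrays at T4 (log2 signal relative to the array median) and the y axis is PMA-Ionomycin minus mock (log2, n = 4 rabbits a group). Red points are the 3879 genes called higher, blue points the 2700 called lower and grey points those not called. On this scale the largest rise among named genes, of CSF2 at 7.88, exceeds the largest fall, of CALHM6 at -5.52. IL13 and MMP10 lay near the background in mock, so their order against CSF2 is not settled.

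Cytokines of T helper cells were among the largest rises. Of the 12 largest rises among called genes with a symbol, 6 were cytokines: CSF2, IL13, IL4, IL2, IL10 and IL17A. CSF2 stood at 1.06, 0.66, -0.17 and 0.56 in mock-stimulated PBMCs and at 8.74, 7.77, 8.73 and 8.38 after PMA-Ionomycin. Its log2 FC was 7.88 (SE 0.43, limma adjusted p = 5.8e-12), a 235-fold rise. The groups lay far apart in every rabbit. IL4, which directs T cells to the Th2 fate and B cells to switch class, was measured at 2.24, 0.85, 1.33 and 1.90 and then at 8.38, 8.32, 8.27 and 8.52. Its rise of 6.79 (SE 0.39, limma adjusted p = 1.12e-11) ended at nearly the same level in all 4 rabbits, with an SD of 0.11 against 0.62 in mock.

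IL13, a Th2 cytokine that acts on epithelium, was not well above background on any mock array, where it read -0.95, -1.03, -0.81 and -1.30. After PMA-Ionomycin it reached 6.46, 5.75, 6.87 and 5.87, at least 137-fold higher (limma adjusted p = 1.95e-17). IL2, the T cell growth factor, went from -0.57, -0.88, -0.90 and -1.06 to 5.02, 4.26, 4.52 and 4.38 (log2 FC 5.40, SE 0.16, limma adjusted p = 1.74e-16). All but 1 of its readings on mock arrays (4 probes on 4 arrays) were not well above background. IL10, which restrains inflammation, was at 0.68, -0.35, -0.58 and 0.17 and then at 4.98, 4.21, 5.99 and 5.28 (log2 FC 5.13, SE 0.65, limma adjusted p = 1.97e-06). IL17A, the signature cytokine of Th17 cells, was not well above background in mock, at -0.56, -0.90, -0.55 and -0.59, and rose at least 20.4-fold to 3.33, 4.66, 4.53 and 2.27 (limma adjusted p = 3.43e-09). Its rise varied most between rabbits among these 6 cytokines, with an SD of 1.13 after PMA-Ionomycin and the lowest value in rabbit 5.

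Across the 18 T helper and growth cytokines found, 13 were called higher and 1 lower, and the median log2 FC was 2.37, against 0.05 over all genes. The growth factors LIF and CSF1 rose by 3.49 and 2.93, and IL6, an inflammatory cytokine, by 2.42. IL21, which helps B cells, was read at -1.04, -0.70, -0.64 and -0.86 in mock, where it was not well above background, and at 1.78, 2.01, 1.35 and 0.91 after PMA-Ionomycin, at least 4.86-fold higher. IL22, which acts on epithelial barriers, was at -0.90, -0.85, -0.67 and -0.99 and then at 0.77, 1.51, 2.61 and 0.68 (log2 FC 2.25). On no mock array were most of its 5 probes well above background, and its log2 FC ran from 1.84 to 4.83 over the alternatives. TNF was already high in mock, at 9.42, 8.79, 6.58 and 8.77, and stood at 9.92, 9.93, 9.15 and 8.18 after PMA-Ionomycin. The TNF groups overlapped and the gene was not called (log2 FC 0.90, SE 0.64, limma adjusted p = 0.409). LTA (log2 FC -0.33) and IL12A (0.17) were not called either, and neither was IL5 (0.14), which was not well above background in mock. The member called lower was IL23A, a subunit of the cytokine that maintains Th17 cells, which fell from 3.69, 4.00, 2.57 and 5.55 to 1.32, 0.81, 0.97 and 0.43 (log2 FC -3.07).

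IFNG, the Th1 cytokine, carried a gene value that joins opposite readings. Its mean over 2 probes rose by 1.19 (SE 0.23, limma adjusted p = 0.000443). The catalogue probe, at chr12:101894325-101894384, read 6.46, 6.30, 6.27 and 5.57 in mock and 5.23, 4.90, 5.71 and 5.61 after PMA-Ionomycin, a log2 FC of -0.79 (limma adjusted p over probes = 0.0381). The probe that the study added, spotted 3 times, was not well above background in mock, at -1.11, -1.04, -0.93 and -1.06, and reached 2.01, 2.96, 2.94 and 0.62, at least 7.97-fold higher (limma adjusted p over probes = 3.26e-07). The sequences of both are shown because the direction depends on which is read. Whether both probes read IFNG was not tested, so the mean of the 2 is not a settled value for this gene.
IFNG catalogue probe: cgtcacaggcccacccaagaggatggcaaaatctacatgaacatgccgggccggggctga
IFNG added probe: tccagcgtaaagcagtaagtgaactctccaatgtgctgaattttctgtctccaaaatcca
Of 1166 genes with a symbol and more than 1 called probe, 2 had probes called in opposite directions, IFNG and CLDN7, both named here after their values were seen.

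Other genes among the 12 largest rises encode an enzyme, regulators of signalling and surface molecules. MMP10, a matrix metalloproteinase, rose from -0.37, -1.10, -0.99 and -1.03 to 6.28, 6.20, 5.59 and 5.75 (log2 FC 6.83, SE 0.22, limma adjusted p = 5.31e-16), and its 5 probes ranged from 5.58 to 7.35. On only 1 mock array were most of these probes well above background, so its mock level lies near the background. NFKBID, a nuclear inhibitor protein of the NF-kappaB family, went from 0.72, 0.97, 0.67 and 1.55 to 6.67, 6.38, 7.47 and 7.49 (log2 FC 6.02, SE 0.25, limma adjusted p = 4.23e-14). Both genes were separated between groups by more than 4 log2 units in every rabbit. CRTAM, a surface molecule of activated T and NK cells, was not well above background in mock, at -0.82, -1.01, -0.63 and -0.98, and rose at least 34.3-fold to 4.28, 3.58, 4.58 and 4.65 (limma adjusted p = 3.01e-15). RGCC, a regulator of the cell cycle, stood at 2.35, 2.75, 2.22 and 2.79 and then at 7.89, 7.11, 7.95 and 7.52 (log2 FC 5.09). RGS2, which shortens signalling of G proteins, was at 2.89, 3.75, 3.38 and 3.85 and then at 8.11, 7.29, 8.90 and 8.45 (log2 FC 4.72). For both the lowest PMA-Ionomycin value was that of rabbit 2. CD1C, which presents lipids and marks dendritic cells, was at 0.00, 1.39, 1.57 and 0.77 and then at 4.88, 5.02, 6.80 and 6.55 (log2 FC 4.88, SE 0.41). The other dendritic cell markers did not share a direction: IRF8 and CCR7 rose by 1.48 and 1.37, FCER1A and IL3RA stood at -0.79 and -0.89 without being called, and the median log2 FC of the 7 markers was 0.00, while their mean level, whose difference rests mostly on CD1C, was 1.52 to 1.79 on mock arrays and 2.36 to 2.69 after PMA-Ionomycin.

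**Figure D2:**
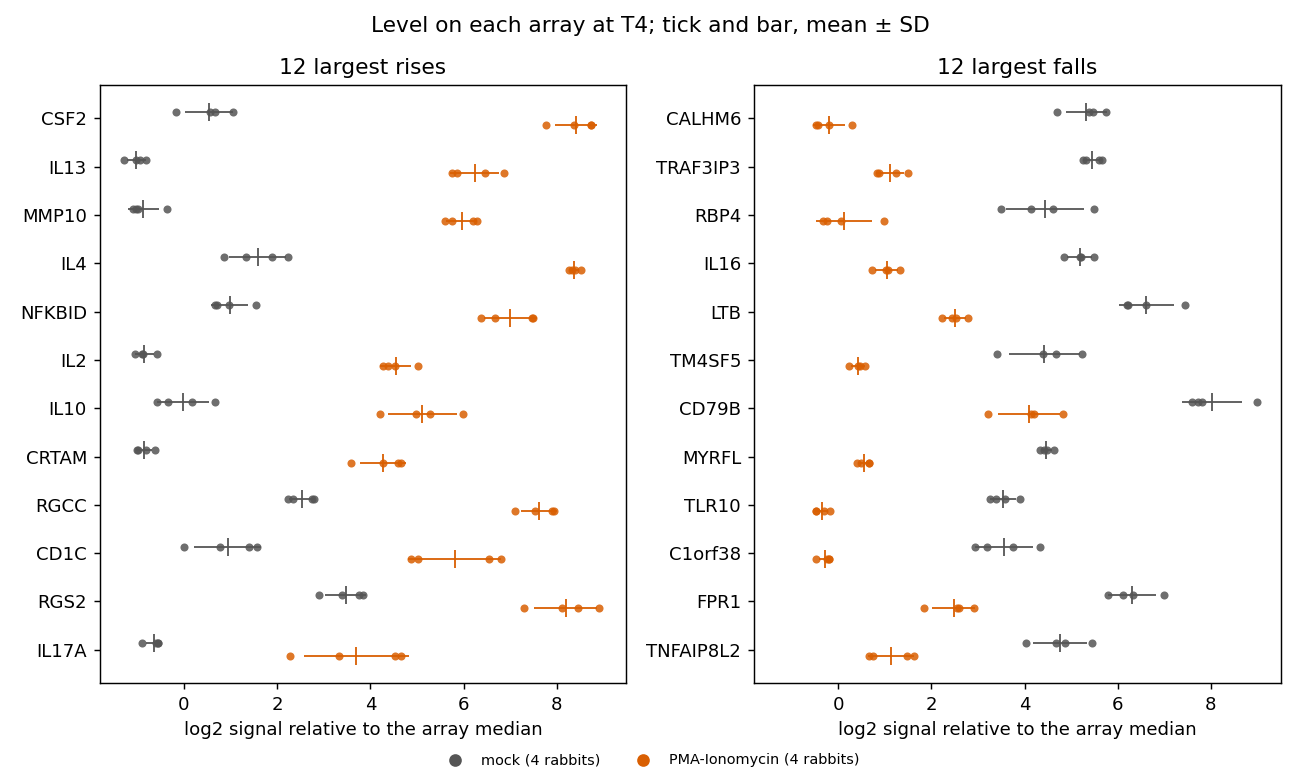
Levels (x axis, log2 signal relative to the array median) of the named genes with the greatest changes in either direction, 12 rises and 12 falls. Each point is an array, grey for mock and orange for PMA-Ionomycin, and the tick and bar give the mean ± SD of 4 rabbits. The groups of all 24 genes, which were chosen for large changes, are separate, as are those of 21.4% of all genes tested. For CSF2, mock arrays reach 1.06 and PMA-Ionomycin arrays start at 7.77.

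Immediate early transcription factors, which are switched on by ERK and calcium without new protein synthesis, rose broadly. Of 16 found, 14 were called higher (87.5%, against 13.4% of all genes) and none lower, with a median log2 FC of 1.92. The orphan nuclear receptor NR4A2 stood at 0.66, 0.75, 0.77 and 0.81 in mock and at 5.04, 4.44, 6.03 and 4.67 after PMA-Ionomycin (log2 FC 4.30, SE 0.24, limma adjusted p = 7.59e-12). MYC, which drives growth, went from 2.44, 2.16, 2.01 and 2.39 to 5.19, 5.28, 5.48 and 5.97 (log2 FC 3.23), although its 7 probes spread from 0.60 to 3.92. Mock values of both genes differed little between rabbits. ATF3, NR4A3 and BATF rose by 3.56, 3.48 and 3.12, and the AP-1 subunits FOS and JUN by 1.81 and 1.62. EGR1 rose by 2.33 (its 2 probes by 1.09 and 3.57). The members not called were EGR4 (log2 FC 0.03) and NAB2 (-0.01).

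Feedback inhibitors of ERK, phosphatases and Sprouty proteins that are induced by the pathway they dampen, rose too, with 8 of 9 called higher and a median log2 FC of 1.28. SPRY1 was not well above background in mock, at -0.87, -0.95, -0.96 and -0.81, and rose at least 6.01-fold to 1.70, 1.24, 2.54 and 1.51 (limma adjusted p = 8.99e-10). DUSP4 and DUSP5, nuclear phosphatases of ERK, rose by 2.26 and 1.44. DUSP1 rose by 1.38, with a limma adjusted p of 0.0377, and was no longer called under 8 of 17 alternatives, among them those without rabbit 1, rabbit 4 or the PMA-Ionomycin array of rabbit 2 (limma adjusted p = 0.134, 0.169 and 0.0883). DUSP7 (log2 FC 0.05) was not called.

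Of 15 genes of protein kinase C and diacylglycerol signalling, none was called higher and 4 were called lower (26.7%, where 13.4% of all genes were higher and 9.34% lower): PRKD2 (log2 FC -2.38), RASGRP2 (-1.78), MALT1 (-1.71) and RASGRP3 (-0.81). The first is a kinase downstream of protein kinase C, RASGRP2 and RASGRP3 are exchange factors that respond to diacylglycerol, and MALT1 couples protein kinase C to NF-kappaB. Of 18 NFAT and calcineurin genes, 1 was called higher and 3 lower, a called share of 22.2% against 22.8% of all genes. RCAN1, an inhibitor of calcineurin and a known NFAT target, rose (0.68), and PPP3CB (-0.41), RCAN3 (-0.52) and CAMK4 (-0.63) fell. None of these 4 calls held without rabbit 1 (limma adjusted p from 0.0529 to 0.31), and RCAN3 alone kept its call without rabbit 4. The median log2 FC of these lists were -0.08 and -0.11. Of 20 genes of the T cell receptor complex and its signalling, 5 were lower (25%) and none higher (2 higher with the rabbit as a block, which pairs the animals), with falls of the adaptors LCP2 (-1.50) and LAT (-1.21) and the exchange factor VAV1 (-1.49), whereas CD2 (0.40) and CD8A (-0.18) were not called.

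NF-kappaB genes were divided. Of 16 found, 6 were called higher and 1 lower (43.8% called, against 22.8% of all genes), with a median log2 FC of 0.45. Beside NFKBID, the subunits NFKB1 and REL rose by 1.37 and 1.15, and BIRC3 and NFKBIZ by 1.55 and 1.32. The call of NFKBIZ was lost without rabbit 1 or 4 and under normexp (limma adjusted p from 0.0525 to 0.117). NFKBIA (0.73), NFKB2 (0.54) and RELB (0.35) were not called, although NFKBIA was called with the rabbit as a block. BCL3, a nuclear co-regulator, fell by 0.64 (limma adjusted p = 0.0333), a call that was lost when rabbit 1, 2 or 5, or the PMA-Ionomycin array of rabbit 2, was left out.

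Of 30 surface molecules and ligands of activated lymphocytes found, 18 were called higher, 3 lower and 9 neither, and the median log2 FC was 0.87. SLAMF1, a receptor that lymphocytes display after activation, went from 1.05, 0.64, 0.19 and 1.04 to 4.15, 4.05, 5.19 and 4.36 (log2 FC 3.71, SE 0.33). FASLG, the ligand that kills through FAS, went from 0.88, 0.20, 0.54 and -0.03 to 3.95, 3.63, 4.21 and 3.80 (log2 FC 3.50, SE 0.18). Groups were well separated for both. TNFRSF12A rose by 2.85, the inhibitory receptor CTLA4 by 2.53 and CD70 by 1.81. CD28 and CD40LG, which were not well above background in mock, were at least 2.42-fold and 1.84-fold higher (limma adjusted p = 1.53e-04 and 9.26e-06). CD80 (0.34), CD86 (0.72), CD274 (0.88) and PDCD1 (0.31) were not called. The members that fell included TNFAIP8L2, an inhibitor of immune activation, at -3.62.

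Among 30 cytokine receptors found, 12 were called lower, 1 higher and 17 neither, with a median log2 FC of -0.56. The receptor that rose was IL6ST, the signalling chain shared by IL6 and LIF, from 1.54, 1.98, 1.81 and 1.44 to 3.89, 3.75, 4.76 and 3.88 (log2 FC 2.38, SE 0.26). Those that fell included CSF1R (-1.45), which receives CSF1, IFNGR2 (-1.40), a chain of the interferon gamma receptor, IFNAR2 (-1.36), a chain of the type I interferon receptor, and CSF2RB (-1.36), the signalling chain for GM-CSF. IL4R (0.17), IL2RG (0.02) and IL7R (-0.38) were not called. Chemokine receptors were mixed, with 3 of 15 higher (ACKR3 2.50, CCR7 1.37, CXCR5 0.96) and 3 lower (CCR10, CCR6 and CCR1, from -0.89 to -1.31). Of 18 chemokines, CCL2, which recruits monocytes, rose by 2.88, CCL20, which recruits Th17 cells, was at least 4.19-fold higher than in mock, where it was not well above background (limma adjusted p = 2.7e-08), and the interferon target CXCL10 fell by 2.54. CXCL8 (0.79) and CCL4 (1.24) were not called. The 16.7% of chemokines called lay below the 22.8% of all genes.

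Lineage transcription factors of T helper cells and lymphoid cells rose in 9 of 25 and fell in 2 (1 without rabbit 2). Among all genes 13.4% were higher and 9.34% lower. The median log2 FC of the list was 0.39. ZBTB32, a repressor in activated lymphocytes, went from 0.68, 0.84, 1.13 and 1.61 to 4.96, 3.80, 5.33 and 5.38 (log2 FC 3.80, SE 0.30). NFIL3, AHR and IRF4 rose by 2.78, 2.11 and 2.07, and IKZF3 and STAT6 fell by 1.89 and 0.99. The 25 factors found are part of a list of 34, and not every factor that defines a T cell subset was analysed here. Of those that were, GATA3 of Th2 cells (log2 FC -0.07) and FOXP3 of regulatory T cells (-0.28) were not called. Of the BCL2 family, 4 of 8 rose, namely the survival proteins BCL2A1 (2.16), MCL1 (1.44) and BCL2L1 (at least 4.60-fold, limma adjusted p = 3.47e-07) and the death-promoting BCL2L11 (0.86). SOCS3, which blocks signalling of IL6 receptors, rose by 2.14, while SOCS1 (-0.49) and SOCS2 (-1.36) were not called. With the rabbit as a block SOCS2 was called lower.

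Matrix enzymes and genes of clotting and fibrinolysis were spread widely, with 7 of 16 called higher, 2 lower (1 without rabbit 1, 2 or 4 or the PMA-Ionomycin array of rabbit 2) and a median log2 FC of 0.44. PLAU, the urokinase, rose by 3.91, MMP3 by 2.31 (its 3 probes from 0.37 to 3.47, with most of them not well above background on each mock array), and MMP7, not well above background in mock, was at least 4.40-fold higher (limma adjusted p = 4.07e-04). F3, the tissue factor that starts clotting, rose by 3.08, a call that was lost without rabbit 2 or 4 (limma adjusted p = 0.0843 and 0.2) or with the 75th percentile as the scale (0.0563). SERPINB2, an inhibitor of urokinase, fell by 3.27, and MMP9 (0.74) was not called. PTGS2, the inducible enzyme of prostaglandin synthesis, had a log2 FC of 1.71 with a limma adjusted p of 0.055, and of 0.00122 with the rabbit as a block.

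Nearly every gene found of ribosome biogenesis rose. Of 41 genes found, from a list of 73 for ribosome biogenesis and the nucleolus, 40 were called higher and none lower (97.6%, against 13.4% of all genes called higher), with a median log2 FC of 1.86 and medians of 1.49 to 2.11 in single rabbits and 1.67 to 2.10 within slides. NOLC1, a nucleolar scaffold, went from 3.19, 3.42, 2.96 and 3.63 to 5.97, 5.38, 6.50 and 6.43 (log2 FC 2.77, SE 0.23). RRP12, which exports ribosomal subunits, went from 3.70, 3.78, 3.65 and 3.46 to 6.44, 5.97, 6.63 and 6.53 (log2 FC 2.74, SE 0.20). In both, rabbit 2 had the lowest value after PMA-Ionomycin. BYSL and POLR1C rose by 2.67 and 2.59, and WDR36 (0.42) was the member not called. By contrast, none of 14 cytosolic ribosomal proteins, found from a list of 78, was called (log2 FC from 0.05 for RPS14 to 0.55 for RPL4, median 0.23), and they were the brightest list, at mean levels of 9.04 to 9.45.

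Lists of other genes that cells need for growth were mixed. Of 21 chaperones, 17 were higher and none lower (median log2 FC 1.02). HSPD1, the mitochondrial chaperonin, went from 5.06, 4.60, 4.35 and 4.38 to 6.64, 6.21, 6.43 and 6.62 (log2 FC 1.88, SE 0.17). Aminoacyl-tRNA synthetases and translation factors were higher in 21 of 30 and lower in none (median 0.89), led by EEF1E1 (2.05), EIF6 (1.72) and NARS1 (1.71). One-carbon, nucleotide and polyamine synthesis had 12 of 19 higher and none lower (median 1.17). IMPDH2, the enzyme that commits to guanine nucleotides, went from 3.69, 3.91, 3.90 and 4.47 to 6.06, 5.28, 6.67 and 6.58 (log2 FC 2.16, SE 0.30). SHMT1 and GMPS rose by 2.15 and 1.86. Proteasome subunits were higher in 8 of 28 and lower in none (median 0.43), a called share of 28.6% against 22.8% of all genes. Under quantile normalization with or without normexp 5 were higher and 4 lower. They were higher in 4 without rabbit 1 or rabbit 4, and in 13 without the PMA-Ionomycin array of rabbit 2, whose own median over the list was -0.19 while the other rabbits stood at 0.35 to 0.86. Glycolysis was called in 5 of 18 higher, among them PFKP (2.33) and the lactate carrier SLC16A1 (1.84), and in 1 lower, and its median changed sign with the processing. Of 32 nuclear genes of oxidative phosphorylation, 7 were lower and 1 higher (25% called, against 22.8% of all genes, median -0.26), and the count depended on the scaling and on single rabbits. It was 22 lower and none higher under quantile normalization with or without normexp, and 2 to 4 lower without rabbit 1, 2 or 4 or without that array.

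Genes of cell division were counted separately for DNA replication and for G2 and mitosis. Of 30 genes of DNA replication, ORC6 (1.38) and RFC3 (0.83) were called higher and none lower, a called share of 6.67% against 22.8% of all genes. The list's median (-0.02) changed sign with the processing. Without the PMA-Ionomycin array of rabbit 2, 4 were higher. PCNA (0.22), MCM4 (0.83) and RRM1 (-0.36) were not called, but MCM4 passed with the rabbit as a block (limma adjusted p = 0.00678). Of 30 genes of G2 and mitosis, 19 were called lower and 1 higher, where 9.34% of all genes were lower and 13.4% higher. Their median log2 FC was -0.80, and 12 of them were lower without the PMA-Ionomycin array of rabbit 2. CDC20, which triggers anaphase, went from 2.63, 2.34, 2.79 and 3.26 to 1.00, 0.03, 0.91 and 1.59 (log2 FC -1.87, SE 0.38). MKI67, a marker of cycling cells, went from 3.82, 3.42, 3.81 and 3.69 to 2.31, 1.64, 2.87 and 2.92 (log2 FC -1.25, SE 0.29). Rabbit 2 was lowest after PMA-Ionomycin for both, and the groups did not overlap for either gene. UBE2C and NCAPG fell by 1.53 and 1.32, and BUB3 (1.03), of the spindle checkpoint, rose.

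**Figure D3:**
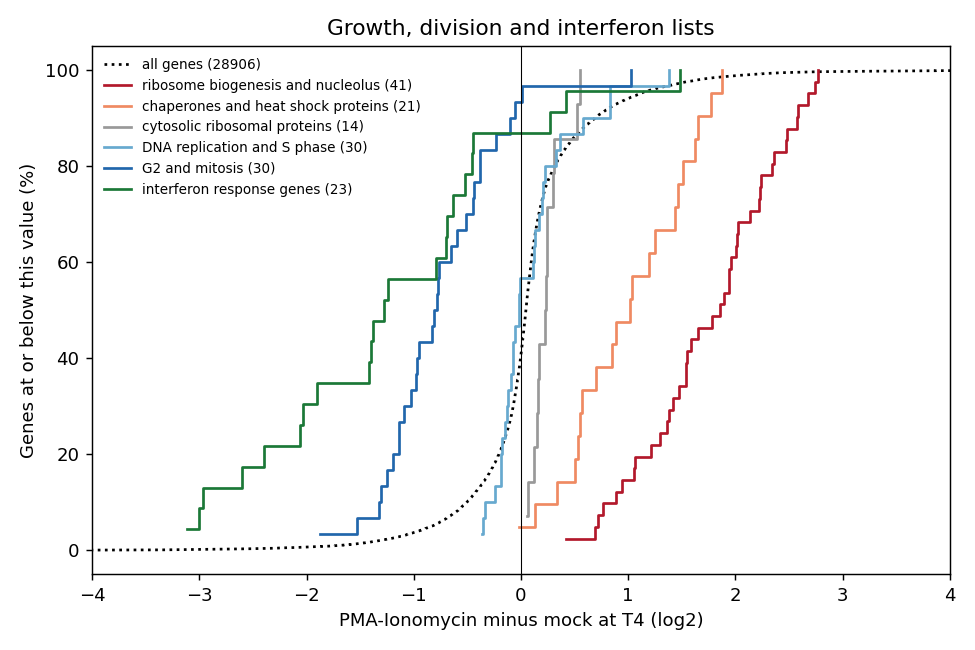
Cumulative share of genes (y axis, %) at or below a given log2 FC of PMA-Ionomycin against mock at T4 (x axis). The dotted line holds all 28906 genes and each coloured line a list, with its number of genes in brackets. Ribosome biogenesis (median 1.86) and chaperones (1.02) lie to the right, ribosomal proteins (0.23) and DNA replication (-0.02) near all genes (0.05), and G2 and mitosis (-0.80) and interferon response genes (-1.28) to the left.

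The 12 largest falls held genes of B cells, monocytes and resting lymphocytes. CALHM6, a channel protein of immune cells, fell from 5.74, 5.38, 4.71 and 5.47 to -0.20, 0.30, -0.43 and -0.46 (log2 FC -5.52, SE 0.36, limma adjusted p = 1.29e-10), and was well above background on 2 of 4 PMA-Ionomycin arrays. TRAF3IP3, a lymphocyte adaptor, fell from 5.60, 5.32, 5.24 and 5.67 to 1.50, 0.84, 0.89 and 1.23 (log2 FC -4.34). Levels of both were close together in each group. IL16, a chemoattractant stored in resting lymphocytes, went from 4.85, 5.19, 5.20 and 5.50 to 1.03, 0.72, 1.34 and 1.08 (log2 FC -4.14). LTB, a lymphotoxin subunit, went from 6.20, 6.22, 6.60 and 7.45 to 2.80, 2.22, 2.53 and 2.44 (log2 FC -4.12). RBP4, a carrier of retinol, went from 4.15, 4.62, 5.49 and 3.49 to -0.23, 0.06, 0.99 and -0.32 (log2 FC -4.31, SE 0.46), with the widest spread of mock values among the 12. TM4SF5, a membrane protein, went from 4.39, 4.67, 5.22 and 3.40 to 0.58, 0.47, 0.42 and 0.23 (log2 FC -3.99). MYRFL went from 4.63, 4.34, 4.48 and 4.42 to 0.49, 0.40, 0.66 and 0.67 (log2 FC -3.92), with probes from -4.78 to -2.32. C1orf38 went from 2.94, 3.19, 3.75 and 4.33 to -0.47, -0.21, -0.23 and -0.20 (log2 FC -3.83). TNFAIP8L2 went from 4.04, 4.86, 4.67 and 5.44 to 0.66, 0.75, 1.62 and 1.48. In all of these the mock and PMA-Ionomycin values did not overlap, as in 21.4% of all genes tested. The choice of genes by size and shared direction of change favours this.

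Other cytokines, of resting or myeloid cells, fell in 7 of 17 (4 without rabbit 2) and rose in 1 (median log2 FC -0.59). Among all genes 9.34% were lower and 13.4% higher. Beside IL16 and LTB, IL37 and IL36G of the IL1 family fell by 2.40 and 2.20 and TNFSF10, not well above background after PMA-Ionomycin, was at least 2.38-fold lower (limma adjusted p = 2.24e-04), whereas IL33, an alarmin, rose by 1.27. IL1B (-0.93) and IL1A (-0.17) were not called.

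Of 23 interferon response genes, which restrain viruses, 17 were called lower and 1 higher, where 9.34% of all genes were lower and 13.4% higher. Their median log2 FC was -1.28. IFIH1, a sensor of viral RNA, went from 5.45, 4.74, 4.48 and 3.97 to 1.98, 2.21, 1.88 and 0.56 (log2 FC -3.00, SE 0.42). XAF1, an interferon-induced factor of cell death, went from 4.18, 3.35, 3.94 and 4.41 to 1.49, 0.29, 1.78 and -0.15 (log2 FC -3.12, SE 0.49). Every rabbit was lower for both. USP18, IFIT3 and RIGI fell by 2.97, 2.61 and 2.40, and ISG15 (-1.42) was not called, except with the rabbit as a block (limma adjusted p = 0.0288) and under other alternatives. The member that rose was the transcription factor IRF1, from 1.30, 1.30, 0.95 and 1.61 to 2.73, 3.13, 3.43 and 1.79 (log2 FC 1.48, SE 0.28). The median over the list was -1.25, -0.92, -0.90 and -1.70 in rabbits 1, 2, 4 and 5, and -0.58 to -1.71 within slides. Peptide loading on MHC class I fell in 5 of 12, led by the interferon-induced proteasome subunit PSMB8 (-1.60) and PSME2 (-1.58), and TAP1 (0.69) was not called.

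B cell genes fell in 10 of 23 and rose in 4, where 9.34% of all genes were lower and 13.4% higher. Their median log2 FC was -0.74. CD79B, a chain of the B cell receptor, went from 7.60, 7.71, 7.81 and 8.98 to 4.20, 3.21, 4.14 and 4.83 (log2 FC -3.93, SE 0.54, limma adjusted p = 5.48e-06). TLR10, a receptor of B cells, went from 3.91, 3.39, 3.26 and 3.59 to -0.47, -0.47, -0.18 and -0.30 (log2 FC -3.89, SE 0.26). BLNK, the adaptor of the B cell receptor, went from 5.06, 4.19, 4.26 and 4.86 to 1.46, 1.11, 1.52 and 1.99 (log2 FC -3.07). These 3 genes fell in every rabbit, whereas the kinase BLK and the transcription factor EBF1 rose by 1.55 and 1.50. Of the 8 B cell markers 3 fell and 2 rose, and their mean level was 3.40 to 3.97 on mock arrays and 2.64 to 3.19 after PMA-Ionomycin. The part of B cell number in these falls was not tested.

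Genes of monocytes and macrophages fell in 11 of 30 and rose in none, with a median log2 FC of -0.64, and 9 were lower without the PMA-Ionomycin array of rabbit 2. FPR1, a receptor for bacterial peptides, went from 6.11, 6.99, 6.34 and 5.79 to 2.56, 2.60, 2.91 and 1.84 (log2 FC -3.83, SE 0.68, limma adjusted p = 0.00014). CD14, which binds LPS, went from 7.14, 7.40, 8.06 and 6.92 to 4.18, 4.24, 4.67 and 4.41 (log2 FC -3.00, SE 0.33). Both were clearly separate between groups. CYBB and SPI1 fell by 2.12 and 1.30, and S100A8 by 2.40 (limma adjusted p = 0.0331), a call that was lost without rabbit 2, 4 or 5, without the PMA-Ionomycin array of rabbit 2, with the slide as a block and with a trended, robust eBayes (limma adjusted p from 0.052 to 0.173), as well as at a required fold of 2. Other genes of the same cells were not called, among them CD68 (0.08), ITGAM (0.02) and VCAN (0.67). Within slides the median of the list was 0.22, -1.12 and -0.78. Of the 12 monocyte markers 3 fell (25% called, against 22.8% of all genes), at mean levels of 1.20 to 2.25 in mock and 1.01 to 1.62 after PMA-Ionomycin, ranges that overlap. Pattern recognition receptors fell in 6 of 18 and rose in 1 (median -0.21), with TLR3 and TLR2 at -3.14 and -2.24 beside TLR10 (the 3 probes of TLR2 spread from -3.45 to -0.08). The part of monocyte number in these falls was not tested.

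Platelet markers fell in 6 of the 7 found, with a median log2 FC of -1.60 and mean levels of 1.70 to 2.64 in mock and 0.13 to 1.04 after PMA-Ionomycin. TREML1, a receptor of activated platelets, went from 3.47, 3.62, 2.84 and 4.65 to -0.24, -0.14, -0.27 and 2.23 (log2 FC -3.25, SE 0.46). Rabbit 5 kept more of it than the others. TUBB1 and ITGB3 fell by 2.60 and 2.44 (the 5 probes of ITGB3 from -3.42 to -0.30), and GP1BA was not well above background in either group. Neutrophil markers fell in 2 of 8, in 1 without rabbit 2 or 5 and in none without rabbit 4, and erythrocyte markers in 1 of 6 and in none without rabbit 2. The called shares of these lists, 25% and 16.7%, stand beside 22.8% of all genes. Of the 3 NK cell markers found PRF1 fell by 0.76, a call lost when rabbit 1, 2 or 4, or the PMA-Ionomycin array of rabbit 2, was left out, or when the fit held only the 8 arrays.

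Genes of lymphocyte quiescence and homing were split evenly, with 7 of 22 higher and 7 lower (median log2 FC -0.18). Among all genes 13.4% were higher and 9.34% lower. TXNIP, a brake on glucose uptake, fell by 1.67 and CDKN1B, an inhibitor of the cell cycle, by 1.29, while KLF6, SATB1 and BACH2 rose by 2.02, 1.64 and 1.13.

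**Figure D4:**
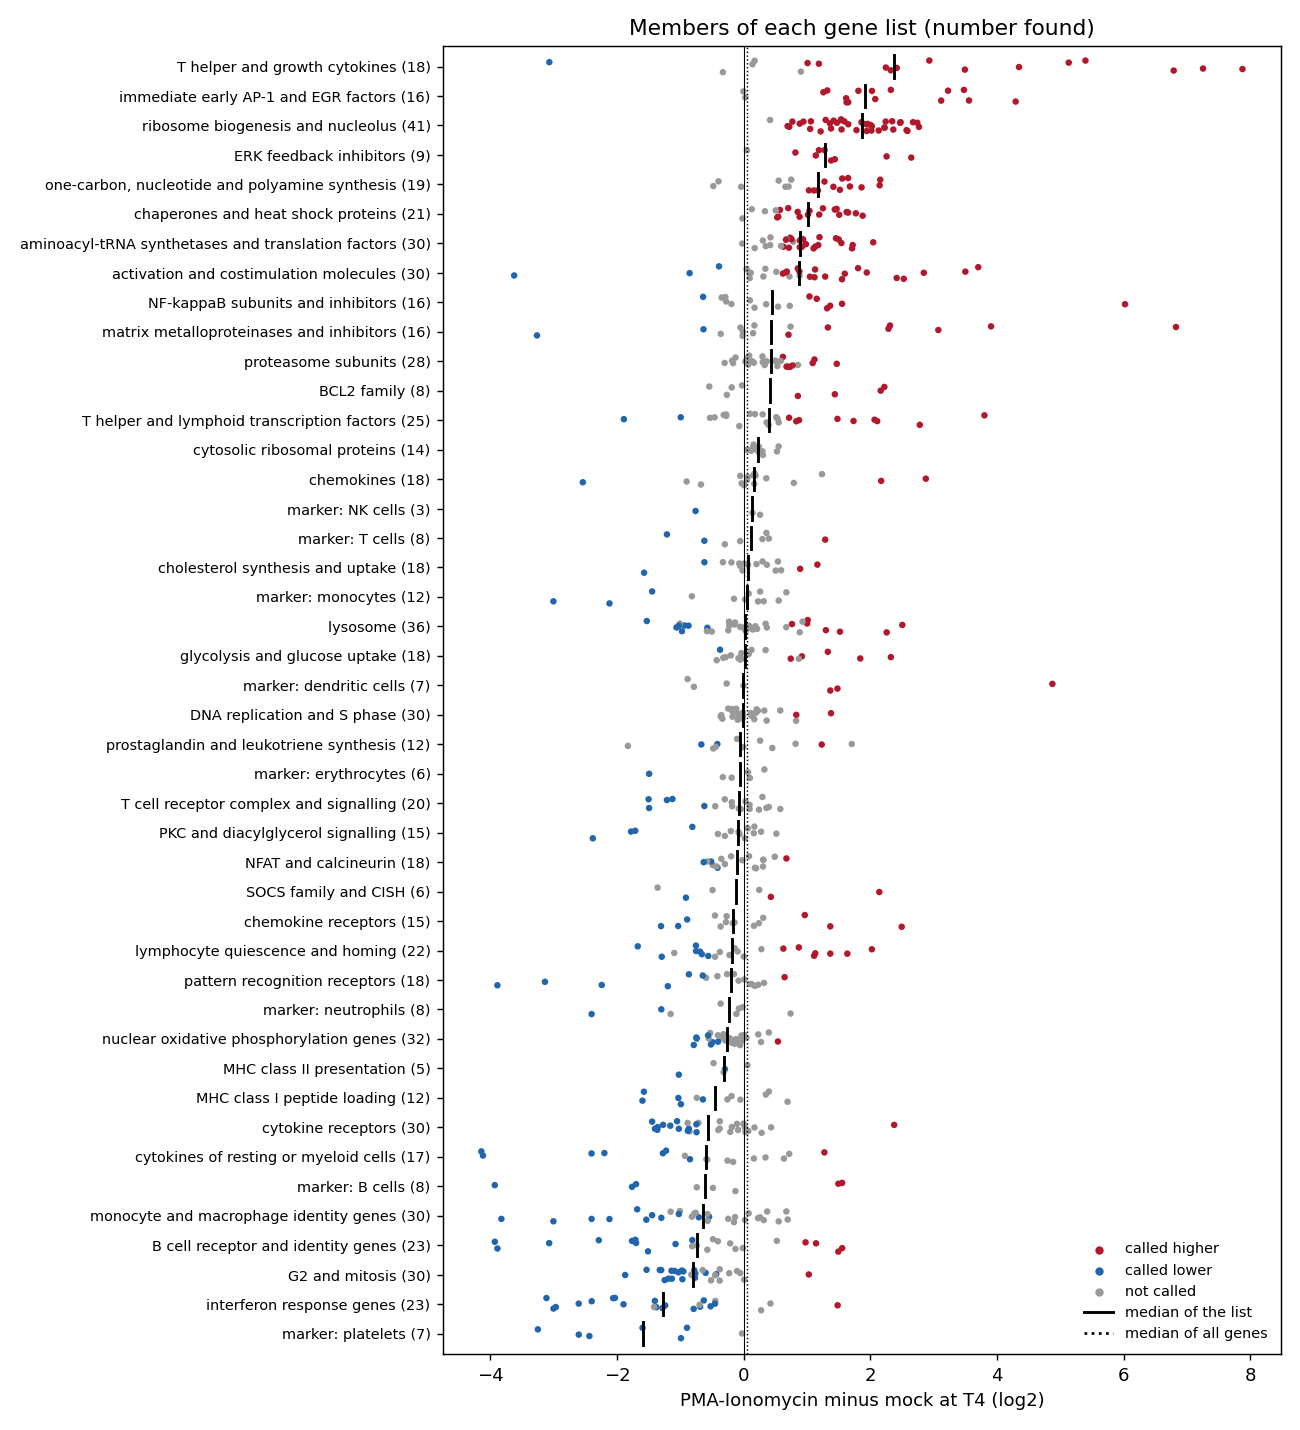
Log2 FC of PMA-Ionomycin against mock at T4 (x axis) for every found member of 36 gene lists and 8 marker lists, with the number found in brackets. Points are genes, red if called higher, blue if called lower and grey if not called; black ticks are list medians and the dotted line is the median of all genes, 0.05. Lists run from T helper cytokines (median 2.37) at the top to platelet markers (-1.60) at the bottom.

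Comparisons with LPS and with the later time used the same fit. The groups share arrays with the comparison above, so each value is given for its own sake. Between PMA-Ionomycin and LPS at T4, 7725 of 28906 genes (26.7%) differed, 5113 higher and 2612 lower after PMA-Ionomycin, a split of 66.2% higher that became 39.1 to 52.7% under the other scalings. All 24 top genes differed between the stimulations in the direction of their change against mock, with limma adjusted p from 2.72e-17 for IL13 to 0.00479 for FPR1. LPS at T4 left CSF2 at a log2 FC of 0.59 and IL4 at 0.02 against mock. IL23A moved oppositely: its log2 FC against mock was 2.27 after LPS and -3.07 after PMA-Ionomycin, and it was lower after PMA-Ionomycin than after LPS (log2 difference -5.35, limma adjusted p = 3.77e-08). CD14 had a log2 FC of -1.55 after LPS, against -3.00, and this difference passed as well (-1.46, limma adjusted p = 0.0017).

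The change against mock differed between T24 and T4 in 6513 genes (22.5%). For 11 of the 12 top rises it was smaller at T24, as for NFKBID with a log2 FC of 1.27 at T24 (T24 minus T4 -4.75) and RGS2 with 1.62 (-3.10). IL13 had a fitted log2 FC of 2.37 at T24 (T24 minus T4 -4.88, limma adjusted p = 6.38e-11), but its probe was not well above background in mock at either time. RGCC was the exception, with 5.11 at T24 and no called difference (0.02, limma adjusted p = 0.985). Among the 12 top falls 5 were smaller at T24, namely CALHM6, TRAF3IP3, IL16, CD79B and TLR10, and the others were not called. TLR10 stood at 0.41 at T24 (T24 minus T4 4.30) and CD79B at -0.29 (3.64). Of the division genes shown above, both had opposite signs at the 2 times: MKI67 was at -1.25 at T4 and 3.66 at T24 (difference 4.91, limma adjusted p = 5.33e-09), and CDC20 at -1.87 and 3.07 (4.94, limma adjusted p = 2.36e-07). Their mock means fell between T4 and T24, from 3.7 to 1.0 for MKI67 and from 2.8 to 0.4 for CDC20. Their PMA-Ionomycin means rose, from 2.4 to 4.7 and from 0.9 to 3.5. IL6ST changed sign the other way, at 2.38 and -1.68 (-4.06, limma adjusted p = 2.12e-08). IFIH1 and XAF1, low at T4, were at -0.11 and 0.07 at T24, and both differences passed (2.89 and 3.19).

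**Figure D5:**
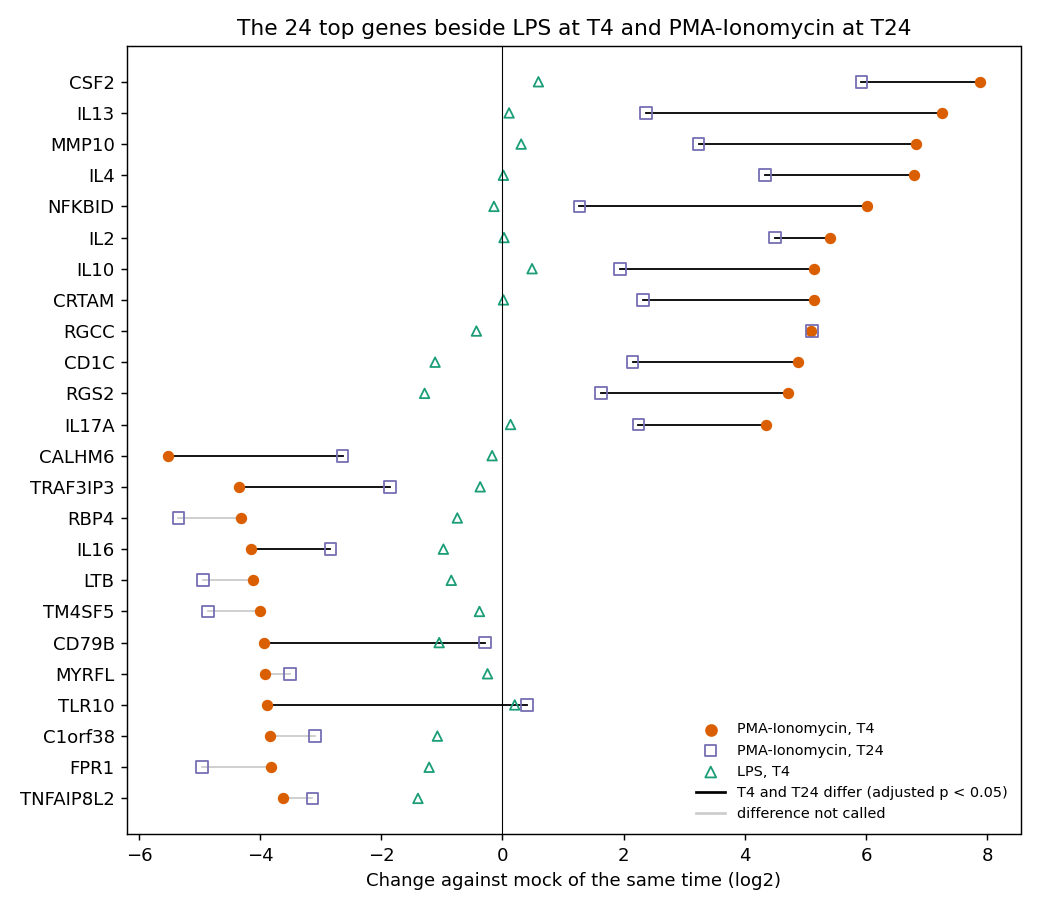
Log2 FC against mock of the same time (x axis) for the 24 top genes: filled orange circles for PMA-Ionomycin at T4, open squares for PMA-Ionomycin at T24 and open triangles for LPS at T4 (means of 4 rabbits a group). Black lines join T4 and T24 where their difference was called and grey lines where it was not. Black lines run toward 0 in the 16 genes that have one, past it to 0.41 for TLR10, and RGCC keeps 5.09 and 5.11.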

How the data were processed

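PBMC cultures of 4 rabbits in 6 groups were measured on 24 one-colour Agilent arrays, on 3 slides of 8. The authors deposited the scanner output of Agilent Feature Extraction 10.7.3.1, in which median signals are spot intensities that were not corrected for background and not scaled, beside their own table of log2 values. Control spots and spots marked as outliers were left out. Log2 median signals were centred on the array median, as in the methods, and averaged per probe and then per gene (28906 genes from 42089 probes, 9571 genes with a symbol). Names came from the files, the study's list of added probes and the RefSeq table of assembly mOryCun1.1, from which no position was used. Positions are on oryCun2, the build in the file headers.

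limma 3.58.1 in R 4.3.3 (lmFit and eBayes) was fitted to all 24 arrays with a mean for each group, and p-values were adjusted by Benjamini-Hochberg over all genes. A gene not well above background on any of its probes in a group was given a bound, from the dimmest signal that passed that test. Precision is limited by the number of arrays. The p-values rest on the spread of arrays within groups, pooled over all 24 arrays, and not on the spread of the changes of single rabbits. Figures were drawn with matplotlib 3.10.9.

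The text names 12 rises and 12 falls, the greatest among called genes that have a symbol, moved alike in 4 of 4 rabbits and passed the background test on every array of the group where they were brighter. Also named were, of each of 36 gene lists and 8 marker lists the called members with the largest changes (up to 4 rises and 3 falls), any gene that defines its list, and a few members that were not called, chosen after their values were seen. Some genes are not reported here. The comparison, the members and the lists were chosen with earlier results of these data known. Lists were given counts and medians and no test.

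Rabbit numbers mark the same animals. Deviations from group means correlated by 0.16, 0.01, 0.02 and 0.32 between the mock and PMA-Ionomycin arrays of rabbits 1, 2, 4 and 5. The methods use no block. Alternatives were a block for the rabbit, other normalizations, the filter on dim probes, the slide as a block, array weights, single probes, a required fold of 2 and leaving out each rabbit. The steps were tested on simulated data.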

Additional observations from a re-analysis of the deposited data

Results flagged for a closer look

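At T4, 7 of 96 sets of 4 arrays (48 genes in 2 groups) held an array far from the other 3, where chance marks about 1 in 20. In mock, MMP10 was at -0.37 in rabbit 1 (others -1.10 to -0.99), IL17A at -0.90 in rabbit 2 (others -0.59 to -0.55), CD79B at 8.98 in rabbit 5 (others 7.60 to 7.81) and the mean of the IFNG probes at 2.26 in rabbit 5 (others 2.63 to 2.67). After PMA-Ionomycin, C1orf38 was at -0.47 in rabbit 1 (others -0.23 to -0.20), TREML1 at 2.23 in rabbit 5 (others -0.27 to -0.14) and IL6ST at 4.76 in rabbit 4 (others 3.75 to 3.89). None of these arrays lay within the range of the other group.

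For 16 of the 24 top genes the change after PMA-Ionomycin differed between T24 and T4 by the test of that difference. As T24 minus T4 on the log2 scale, it was -1.96 for CSF2, -4.88 for IL13, -3.59 for MMP10, -2.46 for IL4, -4.75 for NFKBID, -0.90 for IL2, -3.20 for IL10, -2.81 for CRTAM, -2.73 for CD1C, -3.10 for RGS2 and -2.11 for IL17A. Among the falls it was 2.88 for CALHM6, 2.48 for TRAF3IP3, 1.30 for IL16, 3.64 for CD79B and 4.30 for TLR10. For IL13 and other genes near the background in mock these values depend on the background. These genes were chosen by the size of their change at T4. All 16 changes at T4 were larger in size than those at T24.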

How the results depend on the processing

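All 24 top genes stayed called in their direction under the 17 alternatives that give a value per gene. Of 175 named genes that were called, none reversed under any of them, 160 stayed called under the alternatives other than the required fold of 2 and those that leave out arrays, 76 stayed called under the required fold of 2, and the rabbit as a replicate block ended no call (7496 genes called in all, against 6579). Leaving out a rabbit or the PMA-Ionomycin array of rabbit 2, the genes called at T4 numbered 4749 to 6381 (higher 2775 to 4037, lower 1948 to 2826), those against LPS 5387 to 7909 (higher 3642 to 5291, lower 1745 to 2618) and those of T24 minus T4 4532 to 6495 (higher 2895 to 4248, lower 1463 to 2469, the lowest without rabbit 4, against 2358). Single probes gave 10005 calls at T4 (5829 higher, 4176 lower), 7760 higher against LPS and 9951 for T24 minus T4 (6245 higher, 3706 lower), out of more features. The required fold of 2 gave 695 (500 higher, 195 lower), 856 against LPS (705 and 151) and 1086 for T24 minus T4 (787 and 299). Genes lower than after LPS, 2612 in the text, numbered 4408 under quantile normalization, 6154 under the 75th percentile, 4323 under normexp and 4091 in the deposited table, and the median of all genes in that comparison moved from -0.04 to -0.41 under the 75th percentile. The cause was not tested. Some named genes that were not called gained a call under alternatives, MCM4, ISG15 and PTGS2 under 5 of 17, CD86 and SOCS2 under 4, RRM1 and WDR36 under 3, LTA, NFKBIA and SOCS1 under 2 and CD2, CD274, RPL4 and TAP1 under 1. Of these, the rabbit block gave calls to MCM4, ISG15, PTGS2, SOCS2, NFKBIA and CD2. With rabbit 2 left out, 4 cytokines of resting or myeloid cells and 3 lysosome genes were lower (7 each in the text). With rabbit 1 left out, 3 glycolysis genes were higher and 3 of MHC class I lower (5 each), and with rabbit 4 left out, 2 B cell genes were higher (4). Activation molecules were lower in 1 (3) without rabbit 1 or 4. Of the B cell markers 5 were lower (3) under quantile normalization, the 75th percentile, the fit of 8 arrays and the rabbit block, and T helper and lymphoid factors were lower in 4 (2) and the SOCS family in 3 (1) under quantile normalization. Medians of the lists of DNA replication, cholesterol, glycolysis, lysosome and prostaglandin synthesis and of T cell, dendritic cell and monocyte markers changed sign under at least 1 alternative, and the medians of the other lists did not. Signal over background limits the dim genes: IL13 had a log2 FC of 7.25 here and 10.5 with the background-subtracted processed signal, and IL2 5.40 and 8.39.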

Other observations

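Some lists changed little as a whole at T4 while single members moved. Of 36 lysosome genes 7 rose and 7 fell, with ATP6V0D2, a subunit of the proton pump, and NPC1, a cholesterol exporter, at log2 FC of 2.51 and 2.26 and the lipase LIPA at -1.53. Of 18 cholesterol genes 2 rose, among them the synthesis enzyme CYP51A1 (1.16), and 2 fell, MYLIP (-1.57), which degrades the LDL receptor, and the exporter ABCG1, which was not well above background after PMA-Ionomycin and at least 1.49-fold lower (limma adjusted p = 0.0112). Without rabbit 4, 1 cholesterol gene rose and 1 fell. Without rabbit 1, 1 fell, and without the PMA-Ionomycin array of rabbit 2, 3 rose. Called shares of the lysosome and cholesterol lists, 38.9% and 22.2%, stand beside 22.8% of all genes. The 12 genes of prostaglandin and leukotriene synthesis held 1 rise, PTGIR (1.23), and 2 falls, a called share of 25%, with 3 rises and 1 fall without rabbit 5 and 1 fall without rabbit 2 or its PMA-Ionomycin array.

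The list of MHC class II presentation was found in 5 of 17 genes, because its human symbols missed rabbit names. Of the 5, CTSS (-1.02) and RFXAP (-0.30) fell, and RFXAP lost its call without rabbit 1, 2 or 4 (limma adjusted p from 0.0691 to 0.224). Under rabbit names, chosen after their values were seen, RLA-DMA and RLA-DMB, whose protein pair loads peptides on class II molecules, had log2 FC of -1.95 (SE 0.26, limma adjusted p = 3.52e-06) and -2.45 (SE 0.18, limma adjusted p = 7.05e-10), lower in 4 of 4 rabbits. RLA-DR-ALPHA (-0.47) was not called.

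NCF1, a subunit of the phagocyte oxidase, was named after its values were seen. Its catalogue probe fell from 4.63, 5.04, 4.95 and 5.06 to 1.73, 1.28, 1.41 and 1.70 (log2 FC -3.39), while the probe the study added was not well above background on any of the 8 arrays (log2 FC 0.03), so that the mean of -1.68 joins a probe that moved with a dim probe.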
